A study of Mus musculus with 2 samples.

Results

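The expression of 10 genes of microtubule-binding and tubulin-binding proteins was described in the embryonic mouse hindbrain: the doublecortin family members Dcx, Dclk1 and Dclk2, the stathmins Stmn1, Stmn2, Stmn3 and Stmn4, and the microtubule-associated proteins Mapt, Map2 and Map1b. They were taken by gene symbol, and 10 of 10 had a row among the 43346 annotated genes of the deposited tables. RNA came from the dissected hindbrain of B6NCrl mice at embryonic day 10.5, with both sexes pooled. The series had 1 group of 2 biological replicates, a pool of 69 embryos (replicate 1) and a pool of 51 embryos (replicate 2), each sequenced from 10 ng of total RNA above 200 nucleotides with added spike-in RNAs. The labels give both pools 1 donor ID, so the spread between them describes these pools only.

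Microtubules are polymers of alpha and beta tubulin that form the mitotic spindle of dividing cells and the tracks of axons and dendrites. Doublecortins and the classical microtubule-associated proteins bind the wall of the polymer and stabilise it. Stathmins bind free tubulin dimers and promote disassembly, and they are switched off by phosphorylation. In the developing brain Dcx and Map2 are widely used as markers of young neurons, whereas Stmn1 is also abundant in dividing cells.

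The gene rows of replicates 1 and 2 held 38170090 and 36382245 expected counts, that is, estimated counts, which share a read among the rows it matches. Levels are given in TPM, a measure of transcript abundance that is corrected for length and depth. Markers of the tissue were present: 10 of 10 genes of neural progenitors and 11 of 11 genes of postmitotic neurons reached 1 TPM in both libraries. So did 7 of 7 genes of head mesenchyme, 5 of 5 of endothelium, 5 of 5 of erythroid cells and 4 of 4 of macrophages and microglia, cell types that lie around or within the neural tube. All 10 members reached 1 TPM in both libraries, as did 14291 of all annotated genes (33.0%).

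The levels of the members spanned from 24.1 ± 9.79 TPM for Dclk2 to 2767 ± 513 TPM for Stmn1 (mean ± SD, n = 2, here and below). Stmn1 ranked at position 22 among all annotated genes by mean TPM and Map1b at position 477, while Dclk2 stood at position 5838. Stmn1 was 8.81 times the next member, Map1b, and the ranges of the pools did not overlap between Stmn1, Map1b and Stmn2. The range of Map1b (261.63 to 366.29 TPM) did overlap that of Stmn3 (103.21 to 263.29 TPM), which was the lower in each pool. From Stmn2 downwards each gene's range overlapped that of the next one. Stmn2 and Stmn3, Dcx and Stmn4, and Mapt and Dclk1 exchanged places between the pools, so their order was not resolved.

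**Figure D1:**
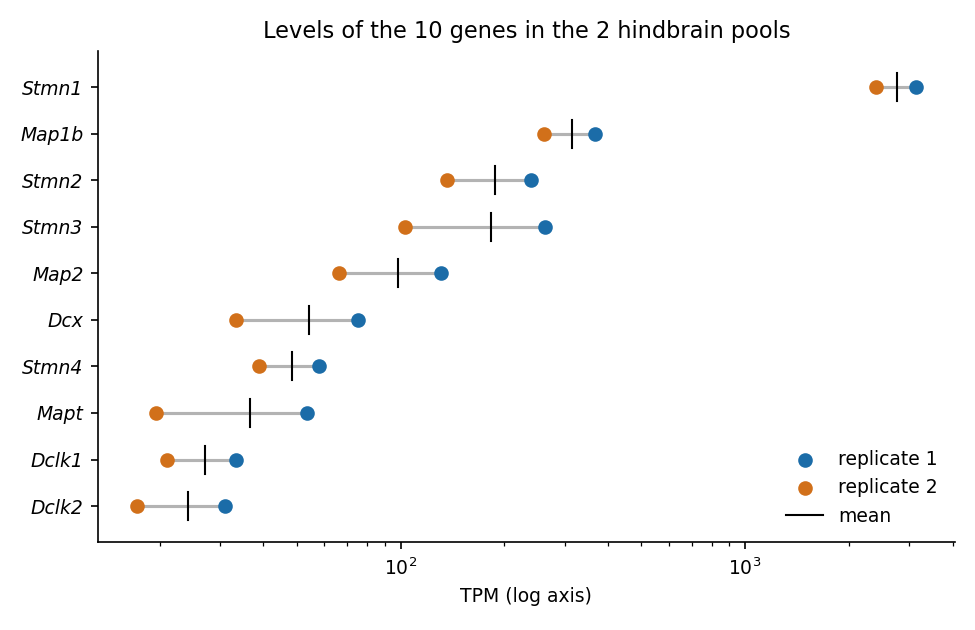
TPM of the 10 genes (log axis) in replicate 1 (blue) and replicate 2 (orange), with the mean as a black bar and n = 2 pools. Stmn1 lies between 2404 and 3129 TPM, apart from the other genes, and the TPM of replicate 2 is the lower one in all 10 genes, before any other scaling.

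Stmn1 (chr4:134468320-134473843, + strand, mm10), the broadly expressed stathmin, had 3129 and 2404 TPM in replicates 1 and 2. It made up 84.8% and 89.6% of the summed TPM of the 4 stathmins. It was the only member whose expected counts, 80961.28 and 55808.09, were not whole, so a part of its reads was shared with other rows. Of 5 annotated transcripts, Stmn1-201 held 98.81% and 98.98% of the TPM. Its coding part has 447 bases, the shortest among the leading transcripts of the stathmins.

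The other stathmins carry an additional stretch at the N-terminus that attaches them to membranes, and all are known for expression in neurons. Stmn2 (chr3:8509360-8561606, + strand), also called SCG10 and found in growth cones, was at 239 TPM in replicate 1 against 137 TPM in replicate 2. Its transcript Stmn2-201, with 537 coding bases, held 95.4% and 95.8% of this. Stmn3 (chr2:181306459-181314500, - strand) was at 263 and 103 TPM, all in its single annotated transcript, which has 540 coding bases. Stmn3 thus exceeded Stmn2 in replicate 1 and lay below it in replicate 2.

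Stmn4 (chr14:66344296-66361680, + strand) was the lowest stathmin, at 58.2 and 38.95 TPM in replicates 1 and 2, or 1.58% and 1.45% of the stathmin sum. Unlike the other stathmins it was divided between several coding transcripts. Stmn4-201, with 567 coding bases, held 63.7% and 57.1% of its TPM, and Stmn4-203, with 648 coding bases, held 24.0% and 32.2%. The latter includes an 81-base exon at chr14:66356269-66356349. The transcripts with this exon held 24.6% and 33.0% of the TPM of the 4 Stmn4 transcripts with more than 500 coding bases. The deposited tables give an interval for each TPM. It belongs to a posterior mean, so it need not include the TPM itself, and its level is not known here. For Stmn4-203 these intervals, 9.22 to 16.1 TPM in replicate 1 and 7.23 to 14.6 TPM in replicate 2, overlapped.

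Dcx (chrX:143855842-143933311, - strand) encodes doublecortin, which binds microtubules through a pair of doublecortin domains. It was at 75.1 TPM in replicate 1 against 33.2 TPM in replicate 2. Its TPM was divided mainly between Dcx-201 (36.0% and 42.5%) and Dcx-203 (44.9% and 40.3%), whose coding parts of 1098 and 1095 bases are nearly alike but whose total lengths are 9074 and 4095 bases. Dcx-203 was above Dcx-201 in replicate 1, where their deposited intervals, 31.0 to 34.9 TPM and 25.5 to 27.4 TPM, were separate. In replicate 2 the intervals overlapped, at 11.7 to 14.3 TPM for Dcx-203 and 13.1 to 14.4 TPM for Dcx-201. Transcripts annotated with a retained intron held 10.9% and 11.7% of Dcx TPM.

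Dclk1 (chr3:55242364-55539068, + strand) encodes a protein that joins doublecortin domains to a kinase domain. It was at 33.2 and 21.03 TPM in replicates 1 and 2, the smallest gap between the pools in TPM within its family. Its 3 annotated transcripts differ in what they can encode. Dclk1-201 has 2268 coding bases in 16 coding exons. Dclk1-203 begins at the same base, shares the first 5 coding exons and then ends early, with 1089 coding bases. Dclk1-202 begins 219232 bases further downstream and has 1266 coding bases. Textbook descriptions of this gene know a short product without the kinase, often called doublecortin-like, and another that is nearly the kinase alone.

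The 2 products of the upstream start part at the end of the same exon, and the sequences at this point are shown because the transcript shares turn on it. The last 12 bases of the shared exon are in lower case and the 54 bases that follow in each transcript are in capitals. For Dclk1-203 these are the rest of its coding part, at chr3:55466573-55466626, and for Dclk1-201 they are the first bases of the next exon, at chr3:55477805-55477858 (GENCODE M21 transcripts, mm10, + strand).
Dclk1-203: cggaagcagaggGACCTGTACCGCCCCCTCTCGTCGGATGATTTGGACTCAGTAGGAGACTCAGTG
Dclk1-201: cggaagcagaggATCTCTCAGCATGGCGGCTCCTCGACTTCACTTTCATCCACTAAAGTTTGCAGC
The early end was the more abundant in both pools. Dclk1-203 was at 20.9 and 14.4 TPM, and Dclk1-201 at 11.1 and 6.02 TPM, in replicates 1 and 2. Within the pair, the early end held 65.4% and 70.5% (67.9 ± 3.65%). The deposited intervals of the 2 transcripts did not overlap in either library, at 19.7 to 21.2 against 10.2 to 11.4 TPM in replicate 1 and at 13.4 to 14.7 against 5.39 to 6.33 TPM in replicate 2.

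The inner start was rare: Dclk1-202 was at 1.25 and 0.61 TPM, 3.77% and 2.90% of the gene, while the upstream start held 96.2% and 97.1%. The 250 bases before each start are shown from the RefSeq promoter table (GRCm38.p6, + strand), at chr3:55242114-55242363 and chr3:55461478-55461727, with CG dinucleotides in capitals. The starts used by that table lie 162 bases before that of Dclk1-201 and 30 bases before that of Dclk1-202.
Dclk1 upstream start: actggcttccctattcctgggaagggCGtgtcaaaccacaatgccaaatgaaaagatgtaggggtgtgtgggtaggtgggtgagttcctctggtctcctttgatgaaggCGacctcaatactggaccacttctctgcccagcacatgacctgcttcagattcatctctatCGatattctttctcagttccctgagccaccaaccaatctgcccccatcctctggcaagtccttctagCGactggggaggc
Dclk1 inner start: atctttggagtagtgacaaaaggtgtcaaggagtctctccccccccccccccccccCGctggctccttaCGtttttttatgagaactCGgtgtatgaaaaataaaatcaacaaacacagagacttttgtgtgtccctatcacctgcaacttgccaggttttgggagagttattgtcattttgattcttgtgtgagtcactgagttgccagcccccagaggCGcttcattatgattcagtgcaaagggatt
Over the full window of 300 bases, which adds 50 bases after the start, the upstream and inner windows had 5 and 6 CG dinucleotides, against a median of 7 over all 32851 windows of the table. Their GC content was 52.7% and 50.3%, against a median of 52.7%.

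That table held 8 windows for 6 members, Dclk1 and Dcx with a pair each, and Dclk2, Map1b, Map2 and Stmn3 with 1 each. In them 3 motifs were searched on both strands. The E-box CAGCTG was in 0 of the 8 windows and in 16.3% of all windows. The E-box CAGATG was in the windows of 2 members, Map1b and Stmn3, and in 17.2% of all windows. TATAAA was in 3 windows of 2 members, Dcx (whose pair of windows overlap) and Map1b, and in 13.6% of all windows. The window of Map2 was the richest in CG dinucleotides among the members, with 37, and those of Dcx the poorest, with 3.

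Dclk2 (chr3:86786151-86920852, - strand), the paralog of Dclk1 with the same pairing of domains, was at 31.0 TPM in replicate 1 against 17.2 TPM in replicate 2. Its transcripts were more evenly divided than those of Dclk1. Dclk2-209 held 41.1% and 38.6% and Dclk2-201 held 26.95% and 26.5%; their coding parts of 2265 and 2268 bases differ by a single codon's length, and both are close to the 2268 bases of the full Dclk1 transcript. Dclk2-202 held 11.9% and 18.1%, and Dclk2-204, annotated as a target of nonsense-mediated decay, 12.8% and 11.6%. Summed over the family, Dcx held 53.9% and 46.5%, Dclk1 23.8% and 29.4%, and Dclk2 22.3% and 24.1% of the doublecortin TPM.

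Map1b (chr13:99421446-99516540, - strand) encodes a large protein that is prominent in growing axons. It was at 366 and 262 TPM in replicates 1 and 2, which was 66.5% and 75.3% of the summed TPM of the 3 microtubule-associated proteins. It also had the most counts of all members, 116365 and 74525, over an effective length of 11753 bases. The tables hold a single transcript for it, with 7392 coding bases.

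Map2 (chr1:66175273-66442583, + strand) was at 131 TPM in replicate 1 against 66.2 TPM in replicate 2. Its large protein forms, which include the product of a long central exon, are known from mature dendrites, and the small form without it is known from the young brain. That exon, at chr1:66412407-66416147, has 3741 bases. Of 24 annotated transcripts, 7 were protein-coding and held both the first and the last coding exon of the longest coding part, here called complete, and they held 59.7% and 61.5% of Map2 TPM.

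Small forms made up most of the complete Map2 transcripts. The 6 without the long exon held 86.1% and 91.6% of their TPM (88.9 ± 3.89%). Map2-204, the single one with the exon, was at 10.8 and 3.41 TPM in replicates 1 and 2, with deposited intervals of 9.93 to 11.1 and 2.95 to 3.63 TPM. The leading transcript of the gene, Map2-201 with 1401 coding bases, was at 52.6 and 30.6 TPM. A further 17 transcripts, among them the 546-base Map2-218 (17.7% and 17.4% of the gene) and Map2-212 with a retained intron (11.0% and 9.57%), held 40.3% and 38.5% of the TPM but 16.1% and 14.5% of the counts. Gm10558, an antisense gene with 385 and 135 counts, shares 124 exonic bases with Map2. Whether the counting used strand is not given in the sources used here, so reads of the pair may be mixed there.

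Map2 binds microtubules through a row of similar repeats, and an exon of 93 bases, at chr1:66431527-66431619, encodes 1 of them. Forms without this repeat are known from the fetal brain. The exon is shown in capitals, with 12 bases of the neighbouring exons in lower case, together with the junction that Map2-201 forms without it (GENCODE M21 transcripts, mm10, + strand).
Map2 exon: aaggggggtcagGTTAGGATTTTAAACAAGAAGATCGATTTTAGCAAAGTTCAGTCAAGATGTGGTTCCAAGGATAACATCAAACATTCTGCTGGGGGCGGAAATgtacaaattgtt
Map2 junction without the exon: aaggggggtcaggtacaaattgtt
Among the complete Map2 transcripts, 2 of 7 include the exon, and they held 1.42% and 7.00% of the TPM. All of this was Map2-207, at 1.11 and 2.85 TPM, whose deposited intervals of 0.0022 to 1.94 and 1.29 to 4.33 TPM overlapped. The leading transcript Map2-201 has neither this exon nor the long one.

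Mapt (chr11:104231390-104332090, + strand) encodes tau, a protein of axonal microtubules. It was at 53.5 TPM in replicate 1 against 19.6 TPM in replicate 2, on 3502 and 1127 counts.

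The N-terminal inserts of tau, encoded by a pair of 87-base exons (chr11:104287123-104287209 and chr11:104289908-104289994), could be compared. Of 12 annotated transcripts, 5 were complete in the sense given for Map2, and they held 91.4% and 78.5% of Mapt TPM. The 2 complete transcripts without either insert, Mapt-204 and Mapt-205, held 84.6% and 75.3% of the TPM of the complete transcripts, and the 3 with both inserts 15.4% and 24.7%. No complete transcript in the annotation carries only 1 of the inserts, so the level of such a form could not be measured. Mapt-205 was the transcript that differed most between the pools among the 3 Mapt transcripts named here, at 26.1 and 5.62 TPM in replicates 1 and 2. Its share of the gene was 48.8% and 28.8%. Among the complete transcripts it held 53.4% and 36.7% of the TPM, and 29.4% and 18.2% of the counts. Its deposited intervals, 22.3 to 28.2 and 3.63 to 6.87 TPM, were separate. Mapt-204 was at 15.3 and 5.92 TPM, with similar shares of 28.5% and 30.3%. The intervals of Mapt-204, 14.1 to 15.7 and 5.28 to 6.30 TPM, were separate as well. Mapt-201, with both inserts, held 10.8% and 15.4% of the gene, and its intervals of 3.01 to 8.30 and 1.24 to 4.50 TPM overlapped. Among the complete coding transcripts, Mapt-205 alone carries a 54-base exon at chr11:104307881-104307934, shown in capitals between 12 bases of the exons on either side.
Mapt-205 exon: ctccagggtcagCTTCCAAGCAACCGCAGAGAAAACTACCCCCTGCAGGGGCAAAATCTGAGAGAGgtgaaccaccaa

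Across the 10 genes the tables listed 74 transcripts, of which 12 were at 0 TPM in both libraries and 20 held at least 10% of their gene's TPM in either library. In 6 genes 1 transcript held over 50% in both libraries: the 4 stathmins, Dclk1 and Map1b. In Dcx, Dclk2, Mapt and Map2 none did. For Stmn3 and Map1b the share was fixed at 100%, since each has a single annotated transcript. The share of all genes with such a transcript is not given here. By expected counts, which are not corrected for length, 9 of the 10 genes had a transcript over 50%, not always the one that led by TPM. Dcx-203 and Mapt-205, which led by mean TPM share, held 30.5% and 23.0% of their gene's counts (means of both libraries).

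**Figure D2:**
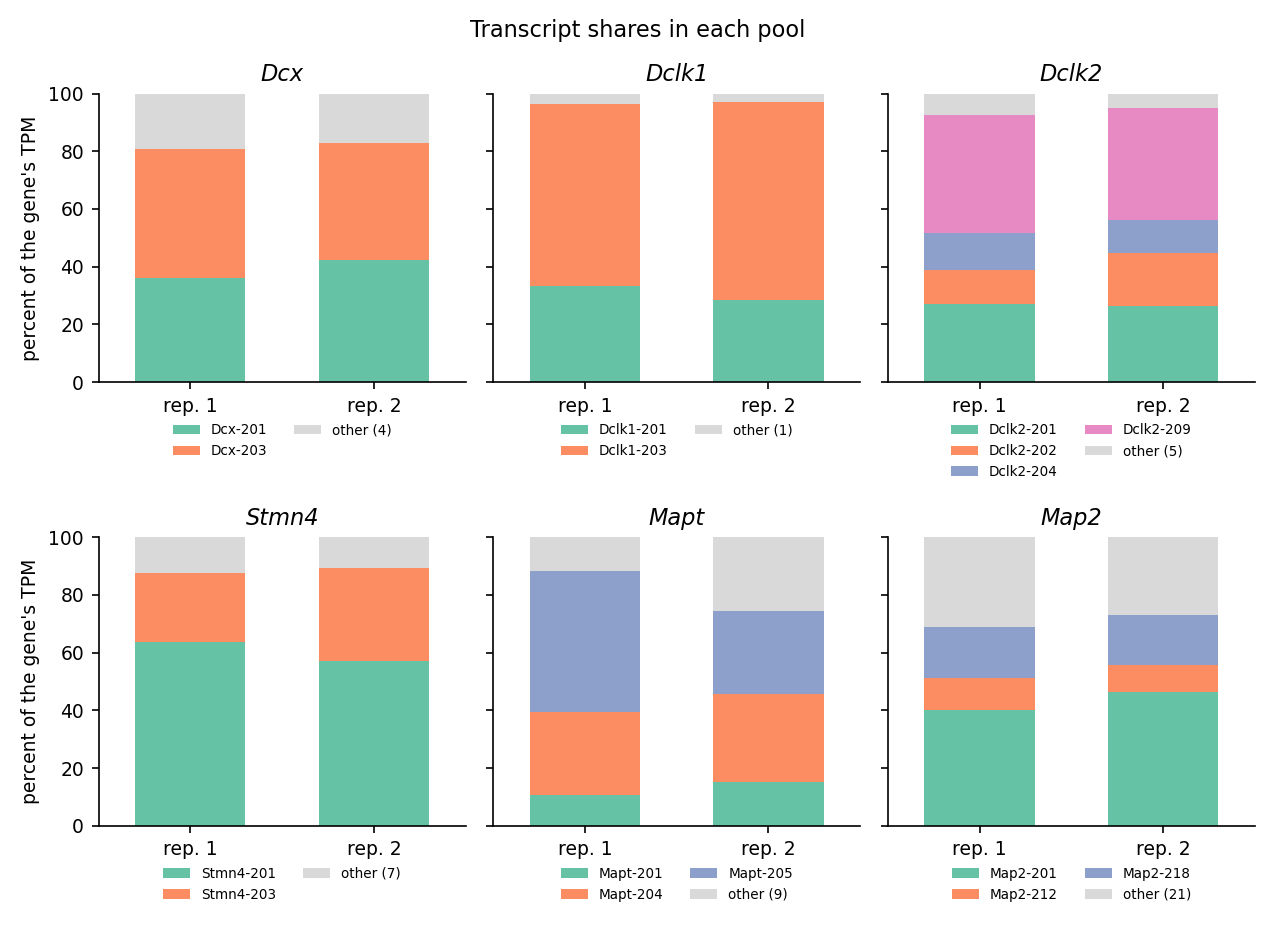
Percent of each gene's TPM in its transcripts, for 6 members with several transcripts, in replicates 1 and 2 (1 bar per pool). Transcripts under 10% in both pools are summed in grey, with their number in brackets. Dclk1-203 holds 62.9% and 68.5% of Dclk1, and Mapt-205 holds 48.8% and 28.8% of Mapt.

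The pools were then compared, as the log2 ratio of replicate 2 over replicate 1 of CPM (counts relative to the library's total) scaled by TMM, a method that sets the typical gene of both libraries equal. With 1 pool on each side these ratios have no p-value and describe these libraries. All 10 members were lower in replicate 2, whereas 50.1% of the 14385 genes with a CPM of at least 1 in both libraries were. The median of the members was -0.85, and that of all these genes was -0.001. Of the members, 8 of 10 were at least 1.5-fold lower in replicate 2, against 9.4% of all genes tested. None was at least 1.5-fold higher, against 4.03% of all genes. Under scaling by the spike-ins the median of all genes moved by 0.82 towards replicate 2, and Dclk1, Stmn4, Map1b and Stmn1 were then above 0, at 0.062, 0.16, 0.26 and 0.36, with 2 of 10 members, Mapt and Stmn3, still at least 1.5-fold lower. That scaling moves all genes by about the same amount, so it does not change the place of the members among them. The share of all genes at least 1.5-fold lower on that scale is not given here, so the count of 2 has no background. In pooled tissue, fewer cells of a type and less RNA of a gene per cell cannot be told apart.

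Mapt had the largest difference, 2.94-fold lower in replicate 2 (log2 -1.56), and 1.01% of all genes had a ratio as low or lower. Stmn3 followed at 2.69-fold (log2 -1.43), with 1.36% of all genes as low or lower. Dcx was 2.23-fold lower (log2 -1.16) and Map2 2.08-fold lower (log2 -1.06). These 4 were at least 2-fold lower in replicate 2, against 3.61% of all genes. Under spike-in scaling 0 of them were, at -0.74, -0.61, -0.34 and -0.24, on a scale where the median of all genes was 0.82. They include members of each of the 3 families.

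The remaining members differed by less. Stmn2 was 1.83-fold lower (log2 -0.87), Dclk2 1.78-fold (log2 -0.83) and Dclk1 1.69-fold (log2 -0.76). Stmn4 was 1.58-fold lower (log2 -0.66), and its counting interval of -0.77 to -0.55, the widest relative to its ratio, included the limit of 1.5-fold. Map1b (1.48-fold, log2 -0.56) and Stmn1 (1.37-fold, log2 -0.46), the most abundant members, were inside that limit. For Stmn1, 12.6% of all genes had a ratio as low or lower. The counting intervals of the members (95%, exact binomial on the counts of both pools, counting error only) did not include 0. With the trends of the ratio on transcript length and expression removed, Map1b, the longest, moved to -0.72 and 9 of 10 were at least 1.5-fold lower. From TPM as deposited, and from posterior mean TPM, 7 of 10 were, with Stmn4 at -0.58 and -0.56. The shares of all genes past the limit under these alternatives are not given here.

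**Figure D3:**
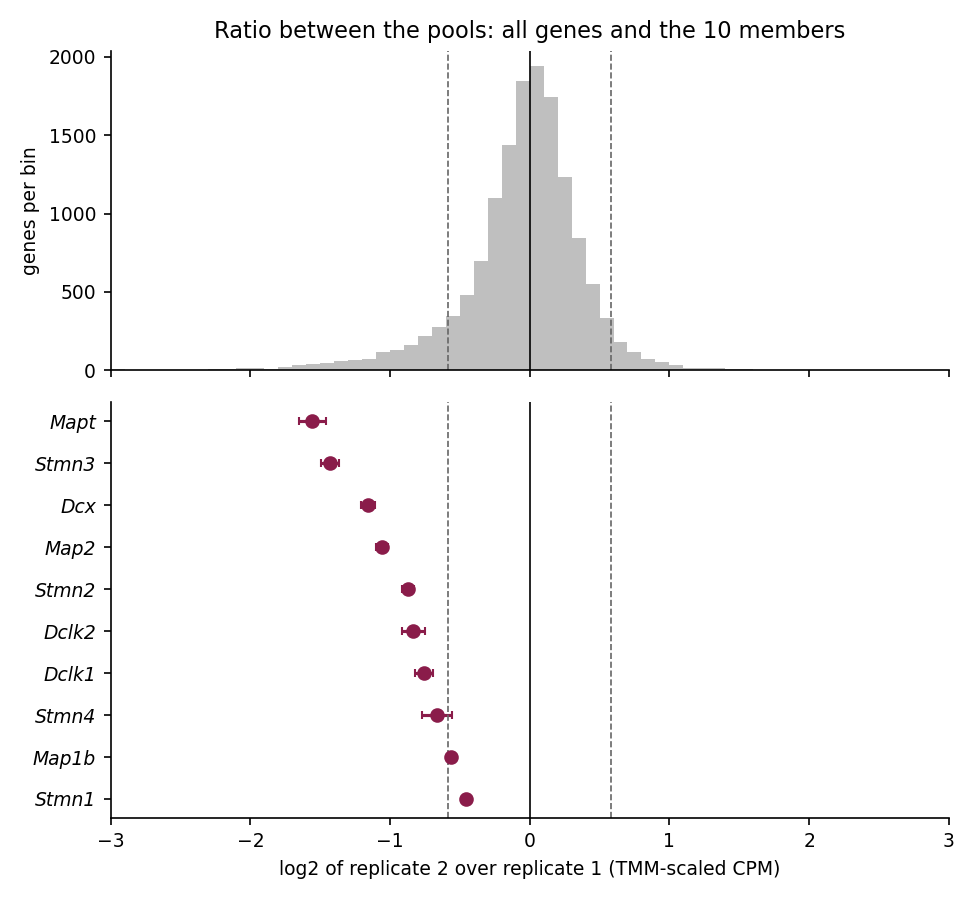
Top, number of genes per bin of the log2 ratio between the pools for 14385 genes; bottom, the 10 members with 95% counting intervals. Solid lines mark 0 and dashed lines a 1.5-fold difference; the members lie between -1.56 (Mapt) and -0.46 (Stmn1), in the lower part of the distribution; spike-in scaling places Stmn1, Map1b, Stmn4 and Dclk1 above 0.

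**Figure D4:**
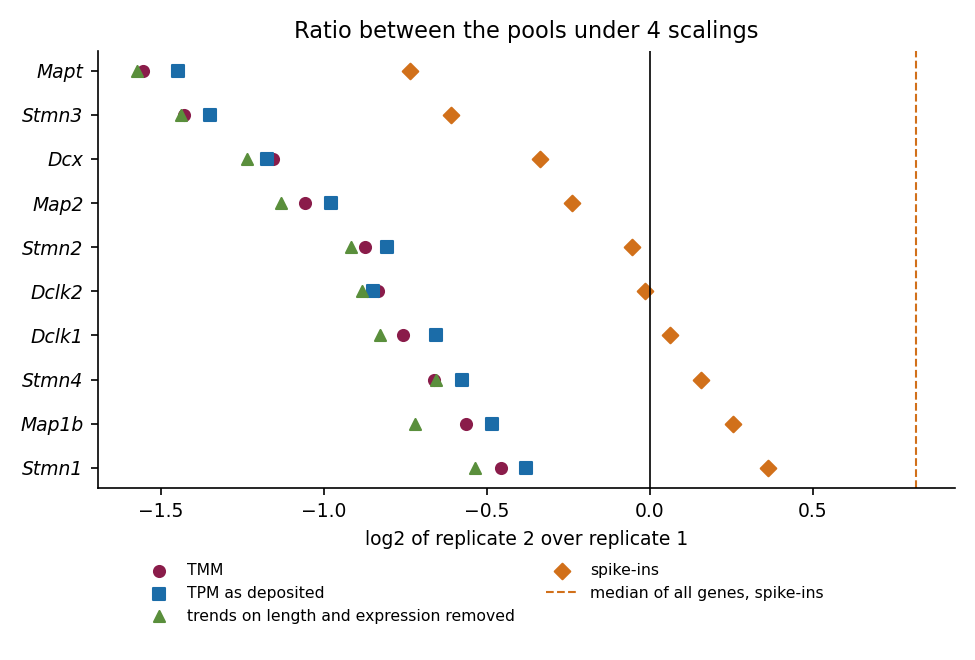
The log2 ratio of each member under TMM, TPM as deposited, removal of the trends on length and expression, and spike-in scaling. Spike-ins place 4 members above 0 (at 0.062 to 0.36), and the dashed line marks the median of all genes on that scale (0.82), which by construction moves with the members.

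Markers of neurons moved with the members. All 11 genes of the postmitotic neuron list were lower in replicate 2, with a median of -0.79. Of them 7 were at least 1.5-fold lower, against 9.4% of all genes. Under spike-in scaling 2 of 11 were at least 1.5-fold lower and the median was 0.03. Their summed level was 2139 and 1440 TPM. The list ranged from the filament gene Ina (log2 -1.73) to the RNA-binding Elavl4 (log2 -0.16). Of 11 cell cycle genes none was lower in replicate 2. There 2 (Mki67 and Bub1) passed 1.5-fold on the higher side, against 4.03% of all genes. Under spike-in scaling 11 of 11 did, and the median of 0.36 became 1.18. On that scale the median of all genes, 0.82, was itself past 1.5-fold. The summed level of the cell cycle genes was 1876 and 2520 TPM. The progenitor list had a median of -0.13 (0.69 under spike-in scaling) and a summed level of 2312 and 1942 TPM. In that list 1 of 10 genes was at least 1.5-fold lower, Fabp7 at 685 and 437 TPM (log2 -0.73, and 0.09 under spike-in scaling). Among genes of peripheral sensory neurons 3 of 7 were at least 1.5-fold lower, with Sncg at -1.29, while Isl1 was higher in replicate 2, at 0.91. Under spike-in scaling 0 of 7 were at least 1.5-fold lower. The medians of the head mesenchyme, endothelium, erythroid and macrophage lists were -0.19, 0.09, 0.07 and -0.49, and 0.63, 0.90, 0.89 and 0.33 under spike-in scaling. The part of these cell types in the ratios of the members was not tested.

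Other genes that act on microtubules were taken from 8 lists. Of 66 genes, 60 passed the CPM limit, 13 were at least 1.5-fold lower in replicate 2 and 1 at least 1.5-fold higher, with a median of -0.16. Of all genes tested, 9.4% were at least 1.5-fold lower and 4.03% higher, which is the background for each list below. Under spike-in scaling 3 were at least 1.5-fold lower and 35 higher, with a median of 0.66. On that scale the median of all genes, 0.82, was itself past the 1.5-fold limit (log2 0.585). Passing the limit on the higher side there does not set these genes apart, and the share of all genes past it is not given here. Of the further doublecortin family genes only Dcdc2a (2.69 and 3.16 TPM) passed the limit. Among 17 proteins that bind the microtubule wall 6 were at least 1.5-fold lower. They were Mtus2 (log2 -2.05), Tppp (-1.71), Map6, which protects microtubules from cold (-1.07), Tppp3 (-0.91), Mtus1 (-0.89) and Map7d1 (-0.65), of which under spike-in scaling 2, Mtus2 and Tppp, stayed past the limit and Map7d1 turned to 0.17. The level of Tppp was low, at 2.27 and 0.72 TPM on 306 and 87 counts. Tppp3 was also the highest of this list, at 153 ± 59.5 TPM, followed by Eml1 at 94.0 ± 15.6 TPM with a ratio of 0.11.

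Of 11 plus-end proteins 3 were at least 1.5-fold lower in replicate 2: Mapre3 (-0.98), Mapre2 (-0.70) and Slain1 (-0.69), of which 0 stayed past the limit under spike-in scaling, at -0.16, 0.12 and 0.13. Their relative Mapre1, or EB1, the highest of that list at 257 ± 12.4 TPM, had a ratio of 0.08. Of 12 kinases and kinase subunits known to phosphorylate members, 4 were at least 1.5-fold lower: Cdk5r2 (-1.43) and Cdk5r1 (-1.37), activators of the kinase Cdk5, then Mapk10, also called JNK3 (-1.07), and Mark4 (-0.68), of which under spike-in scaling only Cdk5r2 (-0.63) stayed past the limit and Mark4 turned to 0.14. The level of Cdk5r2 was low, at 2.11 and 0.81 TPM on 154 and 53 counts, and Cdk5r1 lay at -0.55 under spike-in scaling. Cdk5 itself was at 32.8 and 26.9 TPM (-0.36), and Gsk3b, the highest of the list, at 67.4 and 62.3 TPM (-0.19). None of the 3 minus-end proteins, the 3 depolymerising kinesins that passed the limit, and the 7 genes of Lis1 and dynein was 1.5-fold different in either direction, whereas under spike-in scaling 1 of 3, 3 of 3 and 7 of 7 were at least 1.5-fold higher in replicate 2. Among 6 genes listed as severing enzymes Fignl1, a relative of fidgetin, was higher in replicate 2, at 54.2 and 87.99 TPM (0.59). Under spike-in scaling 5 of the 6 were at least 1.5-fold higher, a limit that the median of all genes (0.82) also passed.

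**Figure D5:**
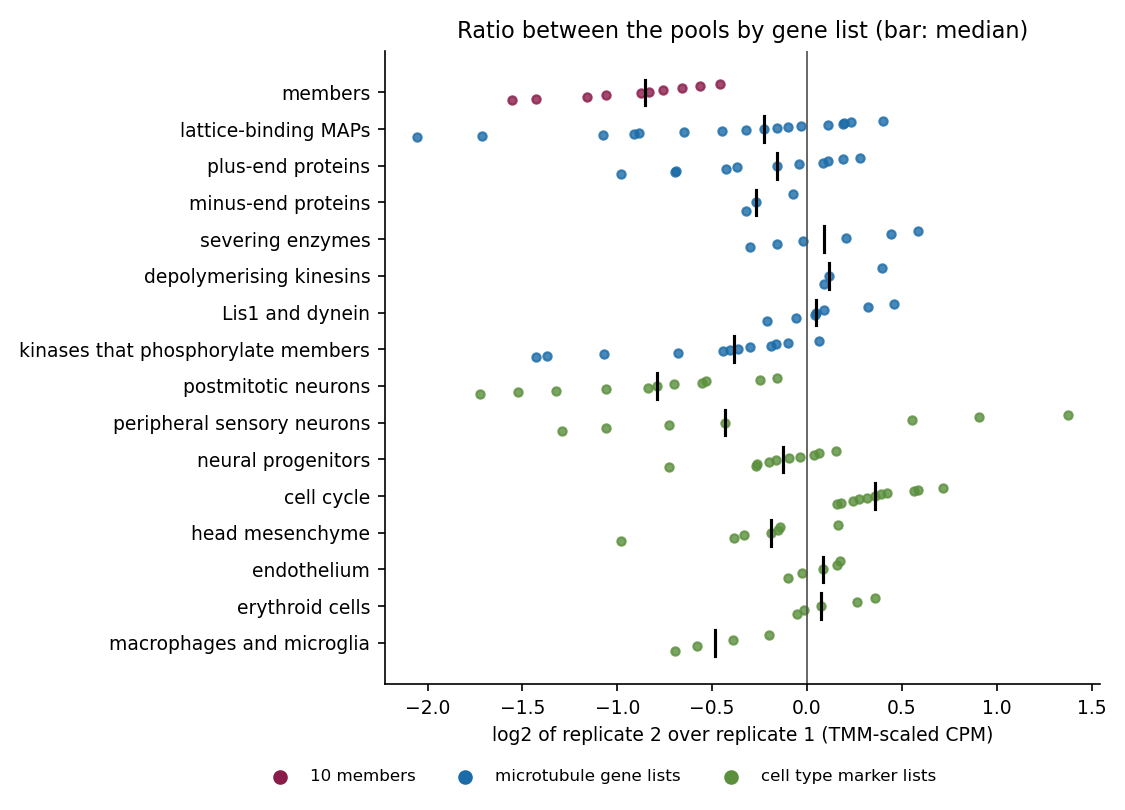
Log2 ratio between the pools (TMM-scaled CPM) of each gene that passed the CPM limit, by list, with the median as a black bar; red, the 10 members, blue, other microtubule genes, green, markers of cell types. The medians of the members (-0.85) and of the postmitotic neuron list (-0.79) are the lowest shown on this scale, and become -0.034 and 0.03 under spike-in scaling; that of the cell cycle list (0.36) is the highest.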

How the data were processed

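Total RNA of 2 pools of mouse hindbrain was sequenced. Per the deposited file notes the tables use assembly mm10 and annotation M4; for the aligner and the quantification program no name is given in the sources used here. Per the file headers, the authors deposited for each gene and transcript an expected count, TPM, FPKM, the percent of a gene's abundance per transcript, a posterior mean TPM and bounds of a TPM interval, here treated as a score. Spike-ins took 13.0% and 7.82% of TPM. Symbols, exons and coordinates came from GENCODE M21 by identifier without version (42462 of 43346 genes, 98.0%). Exon lengths of 2 of the 74 member transcripts, Dclk1-203 and Map1b-201, differ between M21 and the tables.

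Expected counts were rounded. CPM used the sum over annotated genes, TMM factors (edgeR 4.0.16 in R 4.3.3), computed over genes with a CPM of at least 1 in both libraries, and a prior count of 2. Transcript shares were recomputed from TPM. Ratios of TPM used a pseudocount of 0.1. The ratio calculation was tested on simulated data. Alternatives were DESeq2 1.42.0 size factors, total count, spike-ins, other units, filters and prior counts, and lowess (statsmodels 0.14.6, span 0.3) on length and expression. Scripts ran in Python 3.11.15 with scipy 1.17.1, pandas 2.3.3, numpy 2.4.6 and matplotlib 3.10.9.

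The members, lists and the 1.5-fold limit were chosen with earlier results of these data known. Named were all members, transcripts with at least 10% of their gene's TPM in either library or of a class described by its exons, and, of other lists, the highest genes and those past the limit. Cdk5 and the marker genes Ina, Elavl4, Fabp7, Sncg, Isl1, Mki67 and Bub1 fall outside that rule and were named after their values were seen. With 2 libraries no genes were sought by likeness of pattern. Some results on marker genes and on exons of the members are not reported here.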

Additional observations from a re-analysis of the deposited data

How the results depend on the processing

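The count of members at least 1.5-fold lower in replicate 2, 8 as reported, was 2 under spike-in scaling, 4 at a limit of 2-fold and 7 to 9 under the other settings. A share of all genes is given only for the TMM ratios, 9.4% at 1.5-fold and 3.61% at 2-fold. The median ratio of the members, -0.85 as reported, was -0.034 under spike-in scaling. Under the same scaling 4 members changed sign: Dclk1 (0.062), Stmn1 (0.36), Stmn4 (0.16) and Map1b (0.26). By construction that scaling shifts every gene towards replicate 2, the median gene by 0.82, and which scale is nearer to the cells was not tested. Under the other 9 settings every member's ratio stayed below 0, from -1.57 to -1.39 for Mapt and from -0.54 to -0.38 for Stmn1. All 10 members were detected under each unit, threshold and single library tried. The number of genes with a leading transcript over 50% was 6 in each library alone and 9 by counts. These numbers include Stmn3 and Map1b, whose share is fixed by their single annotated transcript. Of 100 alternative values of the members' ratios 27 moved by more than the counting interval and 4 reversed. Of 40 alternative values of the levels 7 moved by more than the SD of the pools, and of 40 of the leading transcripts' shares 12 did; values from a single library are left out, since with 2 pools they cannot move that far. No paired analysis was possible because the series has 1 group. The lowest counts of a member were 1109 (Stmn4) and 1127 (Mapt). How far depth, or reads shared between like transcripts, limits rare transcripts such as Map2-207 was not tested.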
